A study of Mus musculus with 2 samples.

Results

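The chemokine ligands described here are all genes whose symbol begins with Ccl, Cxcl, Cx3cl or Xcl followed by a number. They make up 44 features with 38 symbols among the 32285 genes counted, and the name alone chose them. Each was measured by droplet single-cell RNA sequencing in 2 libraries of mouse aorta. The knock-in library came from mice with a mutation in matrix Gla protein (MGP), a secreted inhibitor of calcification that binds bone morphogenetic proteins, and the wild-type library from wild-type mice. All mice were 1 month old, each library mixed male and female cells, the adventitia had been dissected off, and dead cells had been sorted out. The mutated residue and the number of mice per library are not given in the sources used here. With 1 library per genotype there is no replicate check and no p-value, and the 95% intervals cover counting error only.

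Chemokines are small proteins that guide moving cells through receptors of the G protein-coupled family. Inflammatory chemokines such as Ccl2, Cxcl1 and Cxcl2 are made on demand and call in monocytes or neutrophils, while homeostatic ones such as Cxcl12 and Ccl19 are made steadily by stromal cells and hold or route stem cells and lymphocytes. In arteries, fibroblasts and resident macrophages are known sources of both kinds.

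The knock-in library held 85831737 unique molecular identifiers (UMIs, 1 per captured molecule) and the wild-type library 79626104. Filtering kept 6089 knock-in cells (median 11653 UMIs) and 3588 wild-type cells (median 20396), and 4 barcodes that passed the filters occurred in both libraries. Fibroblast-like cells were 2918 of the knock-in cells (47.9%) and 2694 of the wild-type cells (75.1%). Smooth muscle cell (SMC)-like cells were 2339 (38.4%) and 250 (6.97%), macrophage- or monocyte-like cells 294 (4.83%) and 353 (9.84%), and endothelial-like cells 45 and 64. Clusters were built without the chemokine genes. Classes were named from marker lists, so their marker levels are no test of the names: the 10 fibroblast markers gave 33935 CPM in knock-in and 35070 CPM in wild-type fibroblast-like cells, against 1429 and 2535 CPM in SMC-like cells. Mgp, the targeted gene, stood at 10298 CPM (UMIs per 1000000 UMIs of the same cells) in knock-in and 8303 CPM in wild-type fibroblast-like cells, and its UMIs cannot tell the mutated from the normal transcript. The libraries also differed in circadian clock genes. In knock-in fibroblast-like cells 10 of 16 were at least 1.5-fold higher (10.1% of all genes were) and 4 lower (8.89% of all genes). Dbp was 364 CPM in knock-in and 26.2 CPM in wild-type cells. What part the clock difference has in the chemokine values was not tested.

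Of the 38 symbols, Ccl20, Ccl21b, Ccl21c and Ccl27b had no UMI in the kept cells. Ccl1, Ccl22, Ccl28 and Xcl1 had 1 to 16 UMIs over both libraries, and 10 symbols had 39 to 167. The other 20 had 594 to 43829 UMIs and are described in full. Ccl21a, Ccl21b and Ccl21c, and likewise Ccl27a and Ccl27b, have near-identical sequences, so reads could be split or lost among them. On the other strand, exons of Ccl25, Ccl27a, Cxcl10 and Cxcl16 overlap those of Elavl1, Il11ra1, Art3 and Zmynd15 in the GENCODE vM21 annotation, and whether strand was used in counting is not given in the sources used here.

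Many of these genes sit side by side. In the RefSeq gene order, Ccl2, Ccl7, Ccl11, Ccl12, Ccl8 and Ccl1 form 1 run on chromosome 11, and Ccl5, Ccl9, Ccl6, Ccl3 and Ccl4 another, with at most 3 protein-coding genes between neighbours. On chromosome 5, Cxcl5, Cxcl3, Cxcl15, Cxcl1 and Cxcl2 form a run, and Cxcl9 lies beside Cxcl10. Promoter sequences (250 bases before to 50 after the gene start, RefSeq, GRCm38.p6) were at hand for 27 of the 38 symbols. The 5 below belong to the ligands that the results turn on. Cxcl1 and Cxcl2 are a neighbouring pair, with Cxcl2 mainly in macrophages and Cxcl1 in both macrophages and fibroblasts. Cxcl10 had its fibroblast UMIs mostly in few cells, and Ccl19 and Cxcl12 were spread over many fibroblasts. Each is written 5′ to 3′ on the gene's own strand, and capitals mark matches on either strand to the kappaB-type motif (GGGA, any 2 bases, TTCC), the E-box (CACGTG), the AP-1 motif (TGACTCA) or the interferon-stimulated response element type (GAAA, any 2 bases, GAAA).
Cxcl1 (ENSMUSG00000029380), chr5:90890995-90891294, plus strand: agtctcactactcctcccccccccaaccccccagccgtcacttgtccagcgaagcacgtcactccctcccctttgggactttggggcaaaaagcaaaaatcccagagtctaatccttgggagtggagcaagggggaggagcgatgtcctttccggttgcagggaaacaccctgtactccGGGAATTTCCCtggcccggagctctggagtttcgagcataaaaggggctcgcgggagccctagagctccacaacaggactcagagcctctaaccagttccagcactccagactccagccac
Cxcl2 (ENSMUSG00000058427), chr5:90903649-90903948, plus strand: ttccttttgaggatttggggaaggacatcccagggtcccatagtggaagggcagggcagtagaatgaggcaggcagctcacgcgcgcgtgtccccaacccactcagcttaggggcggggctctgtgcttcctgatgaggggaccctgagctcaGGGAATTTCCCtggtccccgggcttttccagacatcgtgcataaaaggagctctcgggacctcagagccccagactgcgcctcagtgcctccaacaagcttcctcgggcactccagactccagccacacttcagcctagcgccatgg
Cxcl10 (ENSMUSG00000034855), chr5:92348840-92349139, minus strand: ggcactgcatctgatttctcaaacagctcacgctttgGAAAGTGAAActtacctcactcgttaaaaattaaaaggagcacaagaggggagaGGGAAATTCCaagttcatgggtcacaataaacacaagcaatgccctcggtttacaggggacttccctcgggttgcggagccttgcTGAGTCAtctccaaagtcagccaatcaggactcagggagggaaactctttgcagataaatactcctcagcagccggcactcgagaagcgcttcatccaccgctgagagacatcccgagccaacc
Ccl19 (ENSMUSG00000071005), chr4:42756316-42756615, minus strand: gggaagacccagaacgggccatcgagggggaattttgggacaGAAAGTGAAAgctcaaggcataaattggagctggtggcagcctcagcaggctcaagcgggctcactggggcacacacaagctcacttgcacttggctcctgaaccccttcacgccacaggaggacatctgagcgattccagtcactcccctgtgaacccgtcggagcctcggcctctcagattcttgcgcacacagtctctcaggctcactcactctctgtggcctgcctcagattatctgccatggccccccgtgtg
Cxcl12 (ENSMUSG00000061353), chr6:117168285-117168584, plus strand: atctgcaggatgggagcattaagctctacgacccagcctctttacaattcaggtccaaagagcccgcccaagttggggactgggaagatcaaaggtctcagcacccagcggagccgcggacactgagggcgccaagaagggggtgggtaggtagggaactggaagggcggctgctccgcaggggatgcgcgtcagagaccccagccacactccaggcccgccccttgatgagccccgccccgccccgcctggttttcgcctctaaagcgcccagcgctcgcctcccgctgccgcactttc

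The kappaB-type motif, the kind of site bound by NF-kB, was found in the promoters of Cxcl1, Cxcl2, Cxcl3, Cxcl10 and Ccl1, which is 5 of the 27 (18.5%), against 387 of 27025 promoters of all genes (1.43%). In Cxcl1 it begins 71 bases upstream of the gene start, with a second, overlapping match on the other strand 70 bases upstream, in Cxcl2 97 and 96 bases upstream, and in Cxcl10 159 bases upstream. Cxcl10 also holds the AP-1 motif (74 bases upstream) and the interferon-type motif (213 bases upstream), which 5.17% and 3.49% of all promoters hold. Ccl19 holds the interferon-type motif 208 bases upstream, and the Cxcl12 stretch holds none of the 4. The E-box, bound by clock factors among others, was found in Cxcl3 alone of the 27 and in 7.24% of all promoters. These are letter matches in 1 window and not bound sites.

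Macrophages were the main place of chemokine RNA. Chemokine ligands took 1.47% of all UMIs in knock-in and 1.5% in wild-type macrophage- or monocyte-like cells, against 0.117% and 0.07% in fibroblast-like cells and 0.0210% and 0.0213% in SMC-like cells. Of the 20 abundant ligands, 12 had their highest level in macrophage- or monocyte-like cells in both libraries, among 7 groups of cells (those 4 classes and 3 unnamed clusters). Ccl19, which routes T cells and dendritic cells, and Ccl25, known for homing to the gut, were highest in an unnamed cluster led by Rgs5 and Chrm3. Ccl11 (eotaxin) was highest in fibroblast-like cells, Ccl27a in SMC-like cells, and the membrane-bound Cx3cl1 (fractalkine) in endothelial-like cells. Cxcl12 and Cxcl1 had different top groups in the libraries, and Ccl21a had UMIs in the wild-type library alone. The neighbours on chromosome 5 differed in where their UMIs lay. Macrophage- or monocyte-like cells held 95.2% of knock-in and 97.5% of wild-type Cxcl2 UMIs, but 5.67% and 10.4% of Cxcl1 UMIs. Fibroblast-like cells held 85.35% and 84.9% of Cxcl1 UMIs. By level, Cxcl1 was high in both classes. It stood at 306 CPM in knock-in and 168 CPM in wild-type fibroblast-like cells, against 182 and 216 CPM in macrophages.

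**Figure D1:**
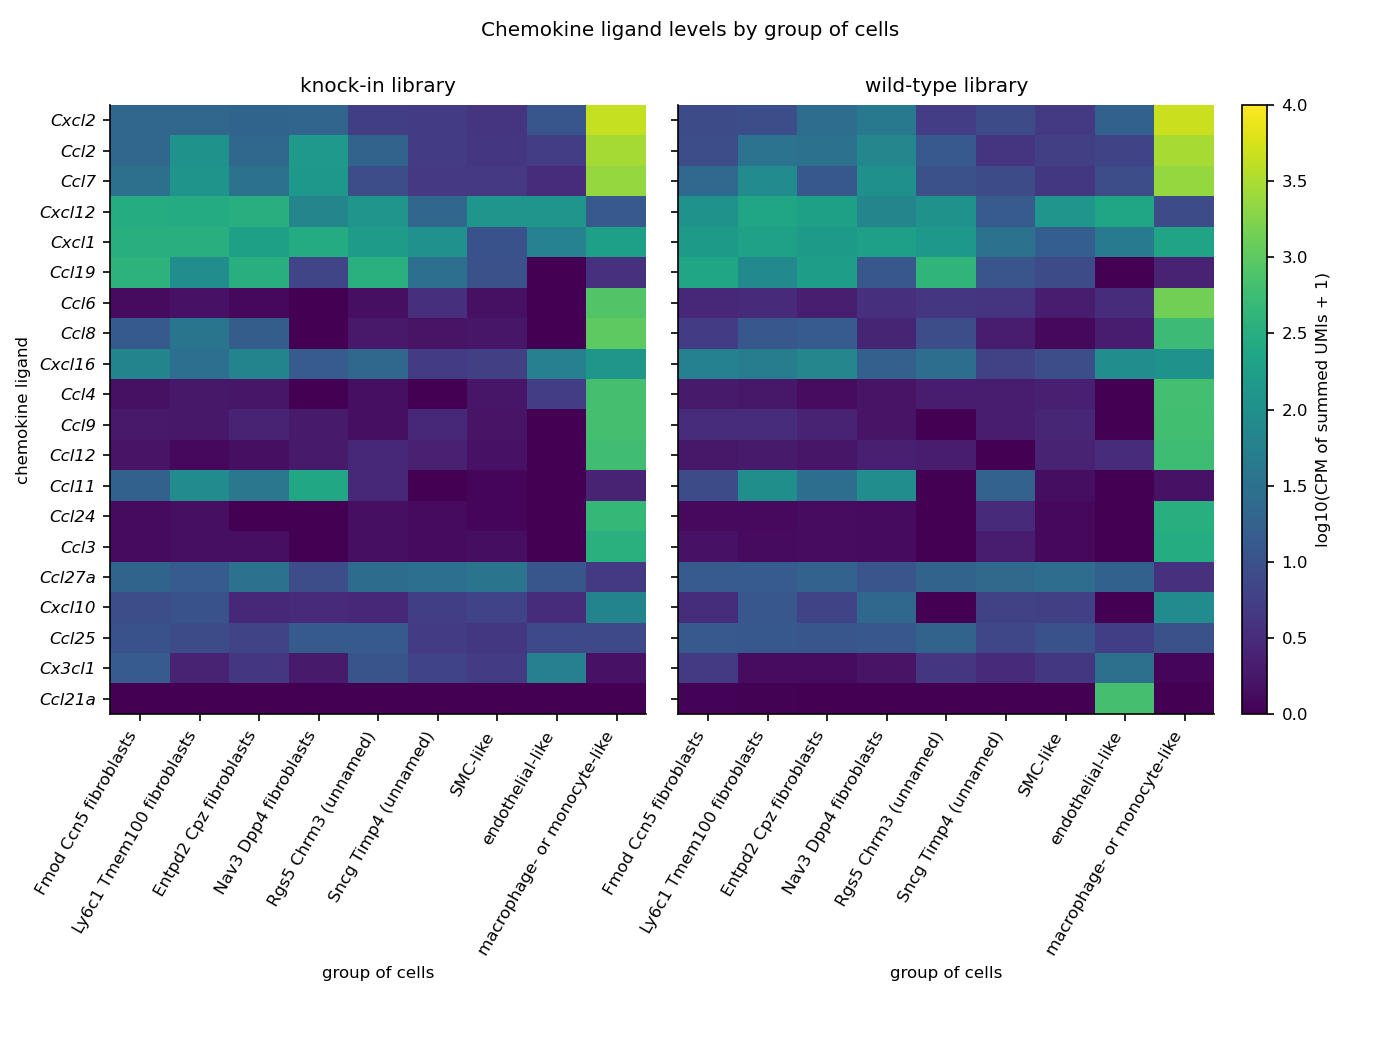
Level of the 20 abundant chemokine ligands (rows) in 9 groups of cells (columns), as log10 of CPM of summed UMIs plus 1, in the knock-in library (left) and the wild-type library (right). The macrophage column is bright for Cxcl2, Ccl2 and Ccl7, while Cxcl12, Cxcl1 and Ccl19 are bright over the fibroblast columns.

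Macrophages were a smaller share of the knock-in cells, and the whole-library level of their main ligands was lower there, while the level within macrophages lay near that in wild-type. Over all kept cells Cxcl2 was 228 CPM in the knock-in and 368 CPM in the wild-type library, and Ccl2 was 168 and 242 CPM. Within macrophage- or monocyte-like cells Cxcl2, a neutrophil attractant, was 4408 CPM in knock-in and 4847 CPM in wild-type cells (log2 ratio -0.14, 95% counting interval -0.17 to -0.11). Ccl2 (MCP-1), the main monocyte attractant, was 2919 CPM in knock-in and 3020 CPM in wild-type macrophages (-0.05, -0.08 to -0.01), and its neighbour Ccl7 (MCP-3) 2340 and 2300 CPM (0.03, -0.01 to 0.07). Fewer cells of a type in a library and less RNA per cell are separated here only as far as the clusters are right.

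In macrophage- or monocyte-like cells, 3 of the 19 ligands with at least 20 UMIs were at least 1.5-fold higher in knock-in cells (6.72% of all genes were) and 1 was lower (8.90% of all genes). The median log2 ratio was 0.03 over these ligands and -0.01 over all genes. Ccl8 (MCP-2), a monocyte attractant that resident macrophages make, was 1022 CPM in knock-in and 553 CPM in wild-type macrophages (0.88, 0.81 to 0.95). It came from 140 of 294 knock-in and 179 of 353 wild-type cells, and the 1% of cells with the most held 21.7% of the knock-in and 33.9% of the wild-type UMIs; without them it was 810 and 372 CPM (1.12). The difference lay mainly in male cells, at 1181 CPM in knock-in and 388 CPM in wild-type (1.61), against 1047 and 870 CPM in female cells (0.27). Ccl6, a macrophage chemokine of rodents, was lower, at 833 CPM in knock-in and 1384 CPM in wild-type macrophages (-0.73, -0.79 to -0.67), with log2 ratios of -0.78 in female and -0.69 in male cells. The others past 1.5-fold were Cxcl12, with 44 knock-in and 40 wild-type UMIs, and Ccl17, described below. Beside Cxcl12, which SMCs make, summed SMC markers in macrophages were 220 CPM in knock-in and 95.5 CPM in wild-type cells, and their part in its value was not tested.

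The remaining macrophage ligands stood closer together in the libraries. Ccl24 (eotaxin-2), an eosinophil attractant of alternatively activated macrophages, was 463 CPM in knock-in and 331 CPM in wild-type cells (0.48, 0.39 to 0.58), just inside 1.5-fold. Ccl3 (MIP-1 alpha) and Ccl4 (MIP-1 beta), neighbours on chromosome 11, were 348 and 670 CPM in knock-in against 301 and 637 CPM in wild-type cells. Ccl9 and Ccl12 were 653 and 588 CPM in knock-in against 606 and 577 CPM in wild-type cells. Cxcl16, which is both a scavenger receptor and a ligand, was 128 CPM in knock-in and 108 CPM in wild-type cells. Cxcl10, an interferon-induced T cell attractant, was 62.3 CPM in knock-in and 82.6 CPM in wild-type cells, with the sexes apart: 54.3 and 149 CPM in female cells, 81.1 and 41.3 CPM in male cells. Cxcl3 had 16 knock-in and 36 wild-type UMIs there, and Ccl26 14 and 24.

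Ligand levels also differed among sub-clusters of the macrophages. Sub-clusters that scored higher on Lyve1, Folr2 and related genes, markers of resident arterial macrophages, held 275 knock-in and 304 wild-type cells, and the others 19 and 49. Most of the others (16 and 38 cells) formed a sub-cluster whose best marker lists were neutrophil and then dendritic, with S100a8 and S100a9 among its leading genes. The rest (3 and 11 cells) scored highest on erythroid markers. Whether the others are macrophages was not tested. No Ccl8 UMI was seen in the others, which allows up to 9.08 CPM in the 19 knock-in and 3.59 CPM in the 49 wild-type cells, against 1124 and 654 CPM in Lyve1 Folr2 cells. Ccl24 was 502 CPM in knock-in and 381 CPM in wild-type Lyve1 Folr2 cells, against 78.7 and 55.0 CPM in the others. Ccl12 was 635 and 662 CPM in Lyve1 Folr2 cells against 115 and 110 CPM, and Ccl7 2538 and 2637 CPM against 357 and 451 CPM, knock-in first in each pair. Ccl6 ran the other way and separated the genotypes in the Lyve1 Folr2 cells, at 749 CPM in knock-in and 1334 CPM in wild-type (-0.83), whereas the others had 1680 and 1657 CPM (0.02). Ccl8 was higher in knock-in cells in 4 of the 5 Lyve1 Folr2 sub-clusters, and in the fifth it was 305 CPM in knock-in and 372 CPM in wild-type cells. Neutrophil markers in the class summed to 63.1 CPM in knock-in and 197 CPM in wild-type cells, with 5 of 6 at 0 in knock-in cells; their part in these values was not tested.

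In fibroblast-like cells, the collagen-making cells of the vessel wall, 9 of the 25 ligands with at least 20 UMIs were at least 1.5-fold higher in knock-in cells (10.1% of all genes were) and 6 were lower (8.89% of all genes). The median log2 ratio was 0.19 over these ligands and -0.06 over all genes. The higher ones were Cxcl12, Cxcl1, Ccl19, Ccl2, Cxcl2, Ccl8, Cx3cl1, Cxcl5 and Cxcl14, and the lower ones Ccl6, Ccl9, Ccl12, Cxcl9, Cxcl15 and Cxcl17. The higher group held the 3 ligands of most UMIs in fibroblasts (Cxcl12, Cxcl1 and Ccl19), and none of the lower ones exceeded 129 UMIs in either library. Chemokine ligands as a whole took a larger share of UMIs in knock-in cells in each of the 3 larger clusters: 0.122% against 0.0626% in the Fmod Ccn5 cluster, 0.113% against 0.0840% in the Ly6c1 Tmem100 cluster and 0.109% against 0.0731% in the Entpd2 Cpz cluster. SMC markers differed in the same direction: they summed to 704 CPM in knock-in and 622 CPM in wild-type cells of the Fmod Ccn5 cluster (3 of 9 past 1.5-fold), 438 and 99.4 CPM in the Ly6c1 Tmem100 cluster (7 of 8) and 1577 and 178 CPM in the Entpd2 Cpz cluster (8 of 8). Their part in the ligand values was not tested.

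**Figure D2:**
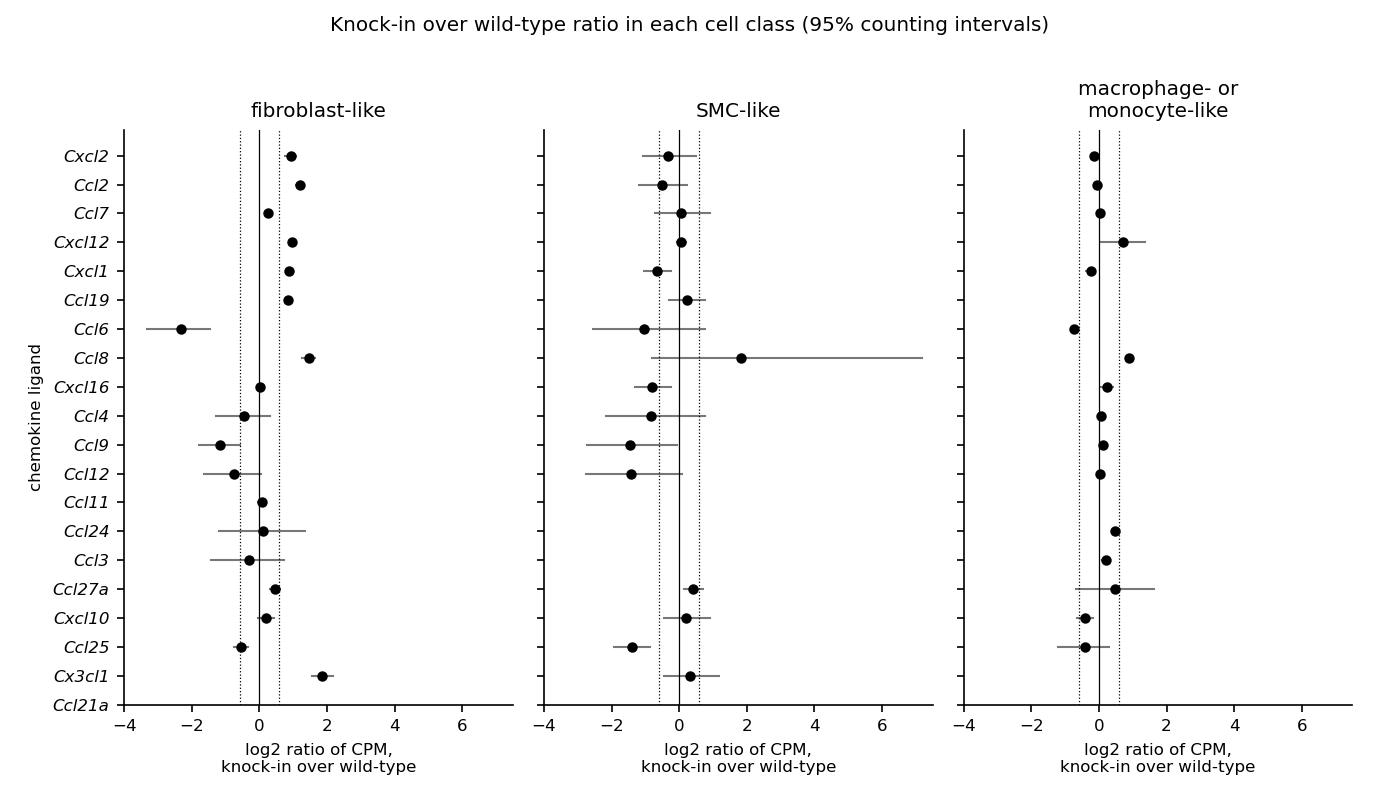
Log2 ratio of CPM, knock-in over wild-type, of each abundant ligand (rows) in fibroblast-like, SMC-like and macrophage- or monocyte-like cells, with 95% counting intervals (lines) and 1.5-fold either way (dotted). Ligands under 20 UMIs in a class are not drawn. Cxcl12, Cxcl1 and Ccl19 lie between 0.84 and 0.97 in fibroblast-like cells, and Cxcl1 lies at -0.64 in SMC-like cells.

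Cxcl12, Ccl19 and Cxcl1, the ligands of most UMIs in fibroblasts, were each spread over many of them. They were not alone in this. Over kept cells of all classes, Cxcl16 had a UMI in 1511 knock-in and 1970 wild-type cells, against 1767 and 1392 for Cxcl1. Cxcl12 (SDF-1), the Cxcr4 ligand that retains stem cells and lymphocytes, was 293 CPM in knock-in and 150 CPM in wild-type fibroblast-like cells (log2 ratio 0.97, 0.93 to 1.01). For shares of cells, each cell was thinned to 3000 UMIs and shallower cells were left out. This kept 2531 of 2918 knock-in and 2628 of 2694 wild-type fibroblast-like cells. In the Entpd2 Cpz cluster it kept 513 of 875 and 235 of 299. Of the thinned fibroblast-like cells, 44.4% in knock-in (42.4 to 46.3) and 26.4% in wild-type (24.8 to 28.2) held a Cxcl12 UMI. Among thinned macrophages 5.14% and 2.59% did. Unthinned, 67.0% and 58.6% of all fibroblast-like cells did. Ccl19, a Ccr7 ligand typical of lymphoid stroma, was 287 CPM in knock-in and 160 CPM in wild-type cells (0.84, 0.80 to 0.88), with a UMI in 45.8% and 30.2% of thinned cells, against 1.03% and 0.575% of macrophages. Cxcl1 (KC), a neutrophil attractant, was 306 CPM in knock-in and 168 CPM in wild-type cells (0.87, 0.83 to 0.91), with a UMI in 32.9% and 21.9% of thinned cells, against 2.45% and 4.0% of SMC-like cells. Median depths were 10870 UMIs in knock-in and 21518 in wild-type fibroblast-like cells, 11494 and 15003 in macrophages, and 12240 and 17322 in SMC-like cells. Among cells of 8000 to 20000 UMIs the log2 ratios were 0.63 for Cxcl12, 0.81 for Ccl19 and 0.86 for Cxcl1.

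The clusters of fibroblasts did not share these differences equally. In the Fmod Ccn5 cluster, 1436 knock-in and 1437 wild-type cells, Cxcl12 was 302 CPM in knock-in and 108 CPM in wild-type cells (1.48, 1.42 to 1.54), and in the Ly6c1 Tmem100 cluster, 556 and 830 cells, 285 and 233 CPM (0.29, 0.22 to 0.36). In knock-in cells the 2 clusters thus lay close together, and in wild-type cells they lay apart. Ccl19 was 380 CPM in knock-in and 220 CPM in wild-type cells of the Fmod Ccn5 cluster (0.79), 88.9 and 77.0 CPM in the Ly6c1 Tmem100 cluster (0.21), and 338 and 176 CPM in the Entpd2 Cpz cluster (0.94, 0.79 to 1.1). Cxcl1 was 324 CPM in knock-in and 152 CPM in wild-type cells of the Fmod Ccn5 cluster (1.09), 327 and 195 CPM in the Ly6c1 Tmem100 cluster (0.75), and 187 and 153 CPM in the Entpd2 Cpz cluster (0.29). The Entpd2 Cpz cluster was shallow, with a median of 3670 UMIs in knock-in and 6441 in wild-type cells, and made up 29.99% of knock-in and 11.1% of wild-type fibroblast-like cells. Its name comes from its leading genes alone. By the subtype marker lists it scored highest for Fmod Ccn5, and Ndufa4l2, from the pericyte list, was also among its leading genes. Its name is therefore uncertain. In the small Nav3 Dpp4 cluster, 51 knock-in and 128 wild-type cells, Cxcl12 was 66.2 and 64.2 CPM, and Ccl19 had 6 and 35 UMIs.

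Counted per cluster, 10 of 20 ligands were at least 1.5-fold higher in knock-in cells of the Fmod Ccn5 cluster (11.8% of all genes were) and 5 were lower (8.13%). In the Ly6c1 Tmem100 cluster 5 of 19 were higher (7.82% of all genes) and 7 lower (11.8%). The median log2 ratio of the ligands was 0.63 in the Fmod Ccn5 cluster and 0.01 in the Ly6c1 Tmem100 cluster, against -0.03 and -0.08 over all genes. The difference between the clusters was not tested.

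**Figure D3:**
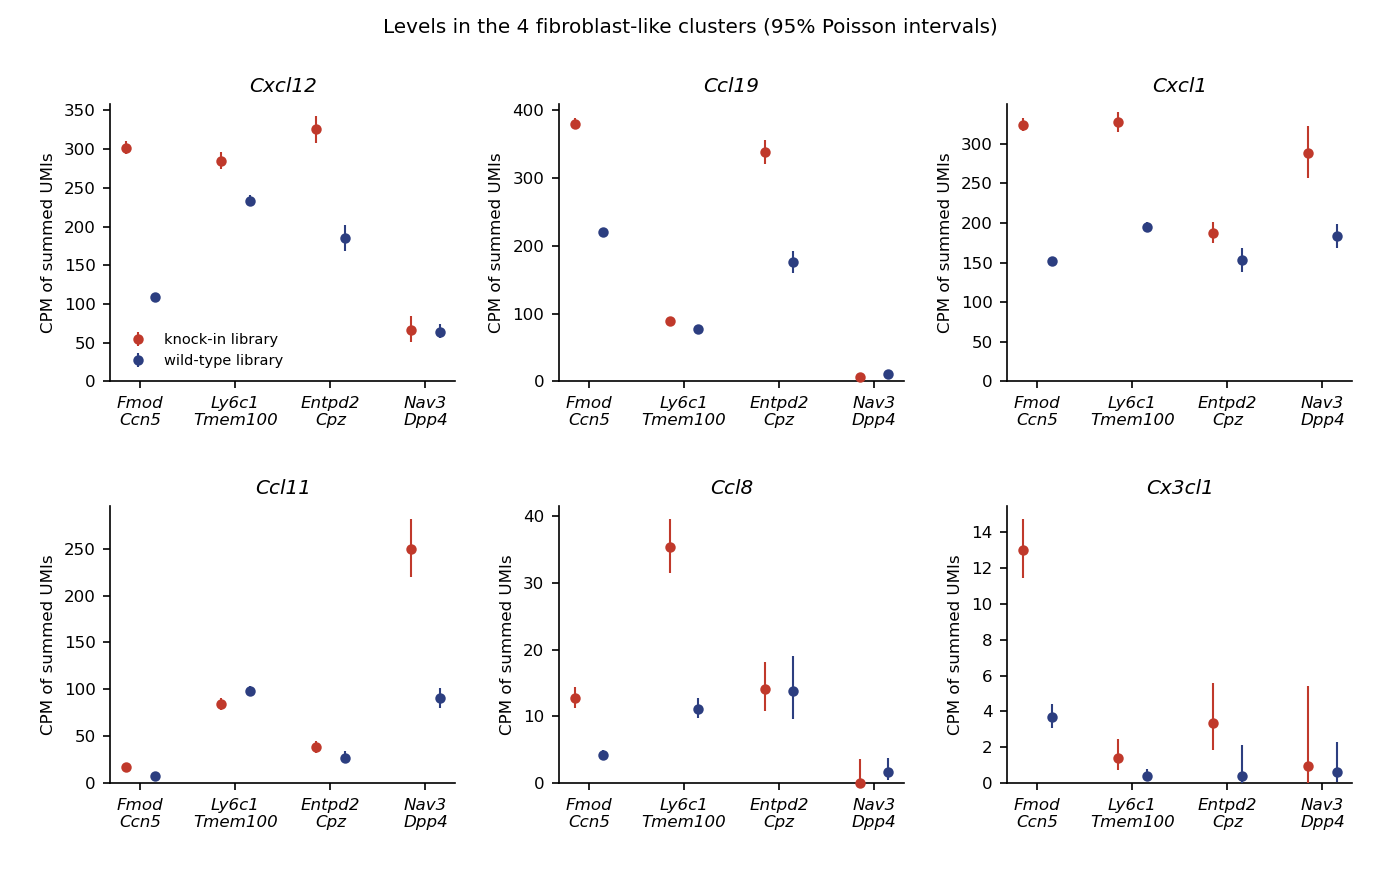
CPM of summed UMIs of 6 ligands in the 4 fibroblast-like clusters, knock-in library (red, left of each pair) and wild-type library (blue), with 95% Poisson intervals. Cxcl12 in the Fmod Ccn5 cluster is 302 CPM in knock-in and 108 CPM in wild-type cells, and Ccl11 in the Nav3 Dpp4 cluster is 249.3 and 90.6 CPM.

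Split by the sex of the cell, read from Xist and Y-linked UMIs, Cxcl12 and Ccl19 were higher in knock-in fibroblast-like cells in both sexes. Cxcl12 was 314 CPM in knock-in and 184 CPM in wild-type female cells (0.77), and 264 and 127 CPM in male cells (1.05). Ccl19 was 307 CPM in knock-in and 174 CPM in wild-type female cells (0.82), and 256 and 151 CPM in male cells (0.77). Cxcl1 was 251 CPM in knock-in and 227 CPM in wild-type female cells (0.15, 0.08 to 0.21), against 378 and 130 CPM in male cells (1.55, 1.49 to 1.60), so its difference lay mainly in the male cells. Cells of 1 sex in a library may come from 1 mouse, since the number of mice is not given.

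**Figure D4:**
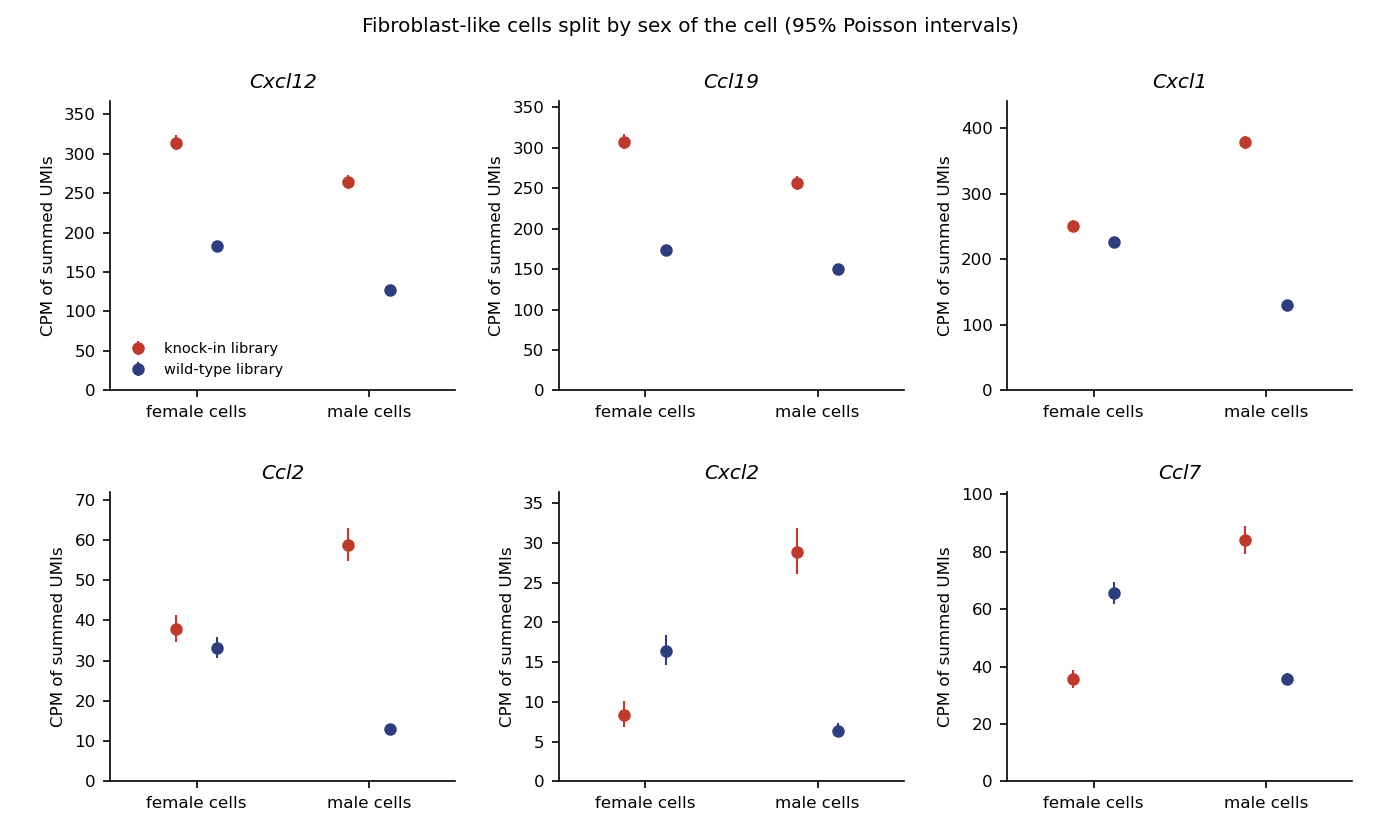
CPM of summed UMIs of 6 ligands in female and male fibroblast-like cells, knock-in library (red, left of each pair) and wild-type library (blue), with 95% Poisson intervals. Cxcl12 and Ccl19 are higher in knock-in cells of both sexes, while Cxcl2 is 8.38 CPM in knock-in and 16.5 CPM in wild-type female cells and 28.9 and 6.37 CPM in male cells.

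Few fibroblasts held much of the UMIs of the inflammatory ligands Ccl2, Cxcl2, Ccl7, Cxcl10 and Ccl8. Ccl2 was 47.2 CPM in knock-in and 20.5 CPM in wild-type fibroblast-like cells (1.2, 1.09 to 1.31), but only 203 knock-in and 368 wild-type cells held any. The 1% of cells with the most held 72.7% of knock-in and 55.2% of wild-type Ccl2 UMIs, and without them Ccl2 was 13.1 and 9.32 CPM (0.49), below 1.5-fold. Cxcl2 was 19.6 CPM in knock-in and 10.3 CPM in wild-type cells (0.93), with 81.1% and 58.1% of UMIs in the top 1% of cells and up to 124 and 53 in 1 cell; without them it was 3.76 and 4.36 CPM (-0.22, -0.54 to 0.10). Ccl7 was 55.0 CPM in knock-in and 45.9 CPM in wild-type cells (0.26), with 55.4% and 48.6% of its UMIs in the top 1%, and Cxcl10 7.34 and 6.43 CPM (0.19), with 86.3% and 83.3% of its UMIs in the top 1%. The same trim left Cxcl12 at 267 CPM in knock-in and 133 CPM in wild-type cells (1.01), Ccl19 at 267 and 146 CPM (0.88) and Cxcl1 at 254 and 140 CPM (0.86).

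**Figure D5:**
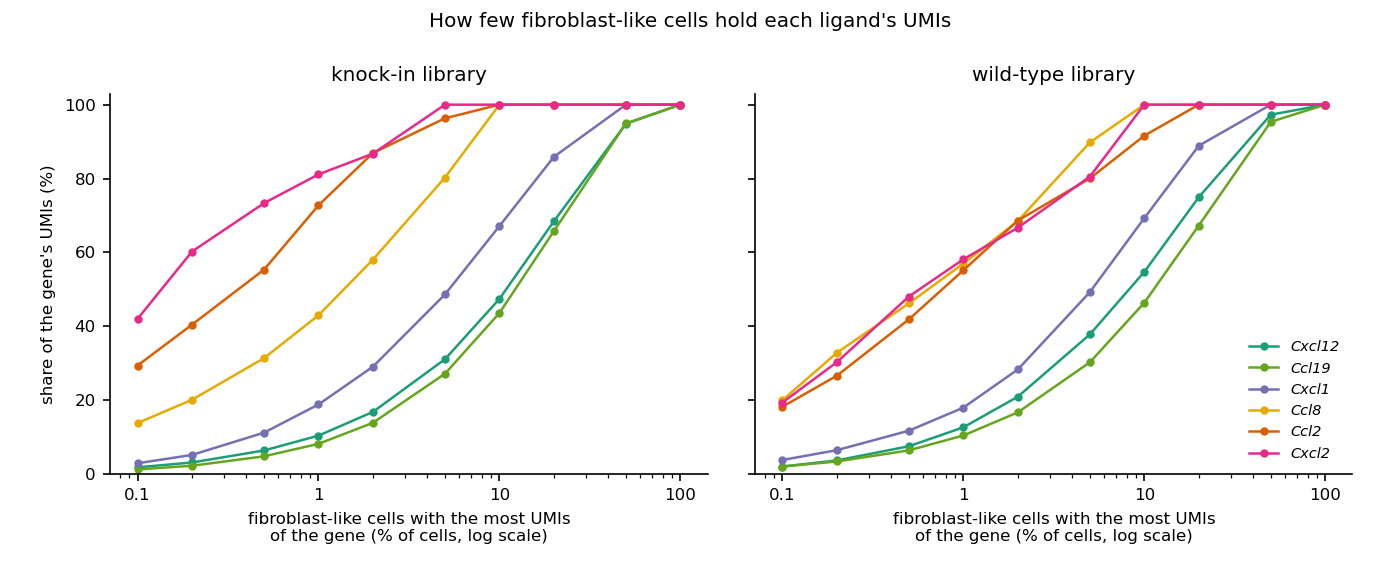
Share of a ligand's UMIs (vertical axis, percent) held by the fibroblast-like cells with the most UMIs of it (horizontal axis, percent of cells, log scale), in the knock-in library (left) and the wild-type library (right). At 1% of cells the share is 81.1% in knock-in and 58.1% in wild-type cells for Cxcl2, and 8.13% and 10.4% for Ccl19.

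Ccl2 and Ccl7 differed between the sexes, Ccl2 in size and Ccl7 in direction. Ccl2 was 37.9 CPM in knock-in and 33.2 CPM in wild-type female fibroblast-like cells (0.19), and 58.8 and 13 CPM in male cells (2.18). Ccl7 was 35.5 CPM in knock-in and 65.6 CPM in wild-type female cells (-0.88), and 84.0 and 35.5 CPM in male cells (1.24). Ccl2 and Ccl7, in 1 run on the chromosome, were set side by side within cells. Of thinned cells with a Ccl7 UMI, 17.0% in the knock-in (11.4 to 23.9) and 13.9% in the wild-type library (8.56 to 20.8) also held Ccl2, against 2.61% and 2.29% of cells without one. In the Ly6c1 Tmem100 cluster these shares were 23.7% in knock-in (13.6 to 36.6) and 20% in wild-type cells (11.4 to 31.3), against 3.35% and 2.77%. In the Fmod Ccn5 cluster they were 5.0% in knock-in (1.04 to 13.9) and 0 of 46 wild-type cells (up to 7.71%), against 2.34% and 2.01%, so the overlap was not detectable there. For Cxcl1 and Cxcl2 the shares were 3.37% in knock-in and 4.69% in wild-type fibroblast-like cells with a Cxcl1 UMI, against 1.30% and 1.56% of those without. Among thinned macrophages with a Cxcl1 UMI, 98.08% in knock-in and 98.75% in wild-type also held Cxcl2, against 74.58% and 75.75% of those without.

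Droplets also catch free RNA of other cells, so each macrophage ligand was set beside macrophage markers in the same cells. The 10 markers stood in fibroblast-like cells at a median of 0.0727% of their macrophage level in the knock-in and 0.124% in the wild-type library, with the top marker at 1.06% and 1.03%. Ccl6 stood at 0.0441% in knock-in and 0.134% in wild-type cells, Ccl24 at 0.0660% and 0.0851%, Ccl12 at 0.0884% and 0.153%, Ccl4 at 0.0912% and 0.133%, and Ccl3 at 0.106% and 0.152%, all within the range of the markers. Ccl9 stood at 0.145% and 0.349%, also within it. Ccl6, Ccl9 and Ccl12 were lower in knock-in fibroblasts. Of the 9 macrophage markers with at least 20 UMIs there, 5 were at least 1.5-fold lower and none was higher. The markers summed to 38.3 CPM in knock-in and 44.6 CPM in wild-type cells. The part of free RNA in the lower ligand values was not tested. Ccl2 stood at 1.62% in knock-in and 0.680% in wild-type cells, Ccl7 at 2.35% and 2.0%, Ccl8 at 1.81% and 1.21%, Cxcl10 at 11.8% and 7.78%, and Cxcl16 at 41.0% and 48.0%. Of these, the Ccl2 value in wild-type cells lay inside the marker range and the others above it, while Cxcl2 stood inside it at 0.445% and 0.213%. Leaving out the 10 knock-in and 31 wild-type cells with at least 5 macrophage marker UMIs left 15 ligands past 1.5-fold, as before.

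Ccl8 was also higher in knock-in fibroblasts, at 18.4 CPM in knock-in and 6.71 CPM in wild-type cells (1.46, 1.27 to 1.65). The top 1% of cells held 43.0% of its knock-in and 57.0% of its wild-type UMIs, and without them its log2 ratio was 1.87. It was 0.73 in cells of 8000 to 20000 UMIs, 2.02 in female and 1.0 in male cells. It was 35.3 CPM in knock-in and 11.1 CPM in wild-type cells of the Ly6c1 Tmem100 cluster (1.66) and 12.7 and 4.13 CPM in the Fmod Ccn5 cluster (1.63). Cx3cl1 was 8.35 CPM in knock-in and 2.31 CPM in wild-type fibroblast-like cells (1.86, 1.55 to 2.17), nearly all from the Fmod Ccn5 cluster, where 246 knock-in and 121 wild-type UMIs were counted. Its log2 ratio was 1.57 in female and 1.96 in male cells. Cxcl5, a neutrophil attractant of the same chromosome 5 run as Cxcl1, had 56 knock-in and 8 wild-type UMIs in fibroblast-like cells (3.60, 2.53 to 4.89), and 52 and 5 in the unnamed Rgs5 Chrm3 cluster, where all of the wild-type cells with a called sex were male. Cxcl14 had 23 UMIs in each library (0.80, -0.10 to 1.70).

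Ccl11, Cxcl16, Ccl27a and Ccl25 lay within 1.5-fold over fibroblast-like cells as a whole. Ccl11, an eosinophil attractant that fibroblasts make, was 44.4 CPM in knock-in and 42.4 CPM in wild-type cells (0.07, -0.03 to 0.16). By cluster it was 249.3 CPM in knock-in and 90.6 CPM in wild-type cells of the Nav3 Dpp4 cluster (1.46, 1.21 to 1.71), 84.4 and 98.6 CPM in the Ly6c1 Tmem100 cluster (-0.22), and 16.6 and 7.41 CPM in the Fmod Ccn5 cluster (1.17). The Ly6c1 Tmem100 cluster, which held most Ccl11 UMIs in the wild-type library, was a smaller part of knock-in fibroblasts (19.1%) than of wild-type ones (30.8%). Cxcl16 was 52.4 CPM in knock-in and 51.7 CPM in wild-type cells (0.02), with 27.8 and 47.6 CPM in the Ly6c1 Tmem100 cluster (-0.78). Ccl27a, a skin-homing chemokine, was 18.3 CPM in knock-in and 13.3 CPM in wild-type cells (0.46), and Ccl25 8.23 and 12.0 CPM (-0.55, -0.75 to -0.34).

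SMC-like cells are the contractile kind that fills the media. In them 1 of the 16 ligands with at least 20 UMIs was at least 1.5-fold higher in knock-in cells (10.2% of all genes were) and 7 were lower (10.6% of all genes), with a median log2 ratio of -0.44 against -0.05 over all genes. In male cells 4 of 11 were higher and 3 lower, where 19.5% of all genes were past 1.5-fold either way. With doublets kept 3 of 16 were higher and 5 lower, against 20.6% of all genes either way. Cxcl12, the ligand these cells hold most of by UMI count, was 126 CPM in knock-in and 121 CPM in wild-type cells (0.06, -0.07 to 0.19). Its log2 ratio was -0.44 in female cells, at 114 CPM in knock-in and 154 CPM in wild-type, and 0.63 in male cells, at 144 and 93.2 CPM. Ccl27a was 34.1 CPM in knock-in and 25.5 CPM in wild-type cells (0.42). Lower were Cxcl1, at 9.24 CPM in knock-in and 14.4 CPM in wild-type cells (-0.64, -1.03 to -0.24), Cxcl16, at 4.75 and 8.28 CPM, and Ccl25, at 3.45 and 9.13 CPM (-1.40, -1.93 to -0.86). Ccl4, Ccl6, Ccl9 and Ccl12 were also below, on 5 to 22 UMIs per library, and Ccl8 was the 1 above, on 23 knock-in UMIs and 1 wild-type UMI. Macrophage markers in SMC-like cells summed to 18.8 CPM in knock-in and 30.4 CPM in wild-type cells, with 5 of 8 lower, and fibroblast markers to 1429 and 2535 CPM, with 9 of 10 lower. Their part in the lower ligand values was not tested. The 250 wild-type SMC-like cells limit this comparison.

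Endothelial-like cells were few, and their values are given as a description. Cxcl12 was 124 CPM in the 45 knock-in and 220 CPM in the 64 wild-type cells (-0.83, -1.28 to -0.40), Cxcl16 was 54.3 and 91.6 CPM (-0.76), and Cx3cl1, a membrane-bound adhesion ligand for Cx3cr1, was 54.3 and 29.1 CPM (0.90, 0.05 to 1.75). In the Rgs5 Chrm3 cluster, 192 knock-in and 56 wild-type cells, Ccl19 was 340 CPM in knock-in and 414 CPM in wild-type cells (-0.29, -0.47 to -0.10). It was higher in knock-in cells of the Fmod Ccn5, Ly6c1 Tmem100 and Entpd2 Cpz clusters, but not of the Nav3 Dpp4 cluster. In the Ly6c1 Tmem100 cluster the Ccl19 log2 ratio ranged from -0.43 to 0.46 over 12 alternatives, so its direction was not stable. The 55 wild-type Rgs5 Chrm3 cells with a called sex were all male, against 78 female and 85 male knock-in cells. Genotype and sex are thus not separated in the Ccl19 ratio of the Rgs5 Chrm3 cluster. No Ccl19 UMI was seen in endothelial-like cells, which allows up to 6.51 CPM in knock-in and 3.35 CPM in wild-type cells. In the unnamed Sncg Timp4 cluster, 239 and 49 cells, Cxcl1 was 106 CPM in knock-in and 29.7 CPM in wild-type cells (1.84, 1.29 to 2.44). SMC markers were the best list of this cluster, but it is not part of the SMC-like class, where Cxcl1 was lower in knock-in cells.

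A handful of ligands rested on a few cells. Ccl21a, a Ccr7 ligand of lymphatic vessels, had 590 UMIs in 2 wild-type endothelial-like cells, both with lymphatic markers (135 UMIs), and none in the 45 knock-in cells, which allows up to 6.51 CPM. Ccl17, a Ccr4 ligand of dendritic cells, had 80 UMIs in 3 knock-in cells of the macrophage class, 78 of them in 2 cells with dendritic markers, and 1 UMI in wild-type cells. Cxcl9, an interferon-gamma-induced T cell attractant, had 6 knock-in and 123 wild-type UMIs in the Ly6c1 Tmem100 cluster, with 111 of the wild-type ones in 2 cells. Cxcl13, a B cell attractant, had 1 and 20 UMIs there. Cxcl15 had 4 knock-in and 23 wild-type UMIs in fibroblast-like cells. Ccl5, an effector lymphocyte chemokine, had 14 UMIs in 1 knock-in cell and 6 in 1 wild-type cell of an unnamed cluster of cycling, mast and T cell genes, and neither cell held a T or NK marker UMI.

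Receptors for these ligands were measured less deeply. Of 19 chemokine receptors, 4 reached 20 UMIs in fibroblast-like cells, and 2 were at least 1.5-fold higher and none lower in knock-in cells, with a median log2 ratio of 0.58. Of all genes, 10.1% were higher and 8.89% lower in fibroblast-like cells, and 6.72% and 8.90% in macrophages. Cx3cr1, the receptor of Cx3cl1, was 21.6 CPM in knock-in and 9.19 CPM in wild-type fibroblast-like cells (1.23), and 48.0 and 12.1 CPM in SMC-like cells (1.99), but 54.9 and 85.5 CPM in macrophages. The other was Cxcr5, with 14 UMIs in each library, and Ccrl2, an atypical relative that presents chemerin, was 5.32 CPM in knock-in and 4.14 CPM in wild-type cells. In macrophages 8 receptors reached 20 UMIs, none was higher and 3 were lower, Cx3cr1 with Ccr1, at 63.4 CPM in knock-in and 120 CPM in wild-type cells, and Ccrl2, at 101 and 158 CPM, while Ccr2, the Ccl2 receptor, was 113 and 121 CPM. Of the 4 atypical receptors, which take up chemokines without G protein signalling, Ackr4 alone was past 1.5-fold in fibroblast-like cells, at 3.09 CPM in knock-in and 5.21 CPM in wild-type cells. Ackr3, the scavenger of Cxcl12, was 234 CPM in knock-in and 324 CPM in wild-type cells (-0.47), the reverse of its ligand over the class. Ackr2 was 11.4 and 11.2 CPM. The 4 together were 438 CPM in knock-in and 390 CPM in wild-type Ly6c1 Tmem100 cells, 144 and 253 CPM in Fmod Ccn5 cells, and 147 and 239.5 CPM in Entpd2 Cpz cells. The Ly6c1 Tmem100 cluster was 19.1% of knock-in and 30.8% of wild-type fibroblasts, and its part in the Ackr3 value was not tested. Pf4, a platelet and macrophage chemokine whose symbol lies outside the rule, was 3987 CPM in knock-in and 3376 CPM in wild-type macrophages.

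Genes known to induce or accompany chemokines were counted as lists. Beside these counts, 10.1% of all genes were at least 1.5-fold higher and 8.89% lower in knock-in fibroblast-like cells. In macrophages 6.72% were higher and 8.90% lower. Of 12 NF-kB feedback genes, none was past 1.5-fold in fibroblast-like cells (median 0.16) or in macrophages (median 0.01), with Nfkbia at 269 CPM in knock-in and 242 CPM in wild-type fibroblast-like cells, Nfkbiz at 213 and 233, Nfkb1 at 147 and 107, and Icam1 at 101 and 81.0 CPM. Of 16 interferon-response genes, 3 were higher and none lower in fibroblast-like cells (median 0.14), with Ifit3 at 26.9 CPM in knock-in and 16.5 CPM in wild-type cells and Irf1 at 153 CPM in both; in macrophages 1 was higher and 5 lower (median -0.44), with Gbp2 at 17.3 and 39.1 CPM. Of 15 genes known to be raised by tissue dissociation, 1 was higher in fibroblast-like cells (median 0.01), Ier3 at 536 CPM in knock-in and 314 CPM in wild-type cells, with Fos at 4847 and 4800 CPM. In macrophages 3 of these 15 were lower (median -0.25). Of the inducing cytokines, Tnf was 259 CPM in knock-in and 203 CPM in wild-type macrophages and Il1b 107 and 219 CPM, and Il6 was 93.9 and 110 CPM in fibroblast-like cells. Of 7 chemokine-processing genes measured there, none was higher and 2 were lower, Mmp14 at 108 CPM in knock-in and 184 CPM in wild-type cells and Dpp4 at 10.7 and 16.4 CPM, while Mmp2 was 522 and 403 CPM. SMC markers in fibroblast-like cells summed to 729 CPM in knock-in and 403 CPM in wild-type cells, with 7 of 9 higher, against 39623 and 41454 CPM in SMC-like cells, where Cxcl12 was 126 and 121 CPM. Their part in the Cxcl12 value was not tested.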

How the data were processed

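The deposited values are raw UMI counts of each gene in each barcode. Per the submitters' processing notes they come from Cell Ranger 7.1.0, and they cover all 1421297 knock-in and 1307634 wild-type barcodes. Since the genome build is not given in the sources used here, coordinates belong to the RefSeq promoters (GRCm38.p6) alone. Cells were barcodes with at least 1000 UMIs, 500 genes and at most 10% mitochondrial UMIs. Doublets were removed by scrublet score (scanpy 1.11.5) at a rate of 0.8% for every 1000 cells, the top scores first. Both libraries were clustered together (counts per 10000, log, 2000 variable genes without chemokines, Mgp, mitochondrial, ribosomal, hemoglobin and sex-linked genes, 30 components, 15 neighbours, Leiden resolution 0.5) and clusters were named from marker lists. A cluster stayed unnamed when another list reached more than 0.65 of its best score. It also stayed unnamed with too few markers detected, or at low depth without an own marker among its leading genes. The Entpd2 Cpz cluster, at no more than 0.316 of its library's median depth, stayed fibroblast-like through 1 fibroblast marker among its leading genes. The Sncg Timp4 cluster was an exception to these rules. It scored 8.49 for SMC and 4.58 for pericyte markers, which would have made it SMC-like. It was left unnamed and out of that class because a pericyte marker and no SMC marker was among its leading genes. Each class's UMIs were summed within a library and scaled to CPM. Intervals are exact Poisson for sums, conditional binomial for ratios and Clopper-Pearson for shares, at 95%. A ratio needed 20 UMIs over both libraries; a count of 0 was limited at 3 counts. Counts of members past 1.5-fold add 0.5 UMI to each sum. The top 1% trim leaves out the cells with the most UMIs of the gene. Ligands with at least 200 UMIs, and rarer ones at least 2-fold apart in a class with 20 UMIs, are named in full; of each pathway list, those with most UMIs or the largest ratio; Cxcl14 and other genes named beside them were chosen after their values were seen. The members and lists were chosen with earlier results of these data known. Only the fold calls and the ratio intervals were tried on simulated counts. These were Poisson draws from class sums, so they do not cover ligands whose UMIs lie in few cells. Filtering, clustering, naming, thinning and the sex calls were not tested in this way. Python 3.11.15 was used, and numpy 2.4.6, pandas 2.3.3, scipy 1.17.1, igraph 0.11.9 and matplotlib 3.10.9. The alternatives tried are given in the closing section.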

Additional observations from a re-analysis of the deposited data

Results flagged for a closer look

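Several ratios of knock-in over wild-type pointed opposite ways in 2 groups of cells, each beyond counting error. Counting error takes UMIs as independent and does not cover UMIs held by few cells. None of these differences was tested, since each genotype had 1 library. Cxcl1 had a log2 ratio of 0.87 in fibroblast-like and -0.64 in SMC-like cells, 1.51 apart. The SMC-like class leaves out the Sncg Timp4 cluster, whose best marker list was SMC and where Cxcl1 was higher in knock-in cells. The Cxcl1 ratio with that cluster included was not computed.

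The others separate female from male cells, each female minus male. In fibroblast-like cells Cxcl2 had log2 ratios of -0.97 and 2.18 (a difference of -3.16), Ccl7 -0.88 and 1.24 (-2.13) and Cxcl10 -0.94 and 1.2 (-2.14). In macrophage- or monocyte-like cells Cxcl10 had -1.46 and 0.98 (-2.43). In the Ly6c1 Tmem100 cluster Ccl7 had -0.70 and 1.62 (-2.32) and Cxcl10 -1.47 and 1.16 (-2.63). In the Entpd2 Cpz cluster Cxcl2 had -4.70 and 3.82 (-8.52) and Ccl7 -2.28 and 3.63 (-5.91). The Cxcl2 values of that cluster rest on 4 knock-in and 52 wild-type UMIs in female cells and on 58 and 5 UMIs in male cells. Over fibroblast-like cells, the top 1% of cells held 81.1% of knock-in and 58.1% of wild-type Cxcl2 UMIs. Much of the Ccl7 and Cxcl10 UMIs there lay in few cells too. The female and male ratios may thus rest on few cells, and ratios without those cells are not given.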

How the results depend on the processing

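No paired analysis was possible because each genotype had 1 library. Each alternative was run once, and alternatives on few cells, macrophage markers, macrophage sub-clusters and single fibroblast clusters were chosen after seeing the data. Fibroblast-like log2 ratios ranged from 0.63 to 1.05 for Cxcl12, from 0.77 to 0.95 for Ccl19 and from 1.56 to 2.12 for Cx3cl1 over 15 alternatives. They ranged more widely for Cxcl1 (0.15 in female to 1.55 in male cells) and Ccl8 (0.72 to 2.52). The upper Ccl8 value came with free RNA subtracted, a setting that gave 9.59 for Cxcl2 and 11.79 for Ccl2 in fibroblast-like cells. The log2 ratio of Ccl6 in macrophages ranged from -0.83 to -0.69 over 14 alternatives. Ccl2 in fibroblast-like cells was 0.41 in cells of 8000 to 20000 UMIs, so it was no longer past 1.5-fold. The estimate of free RNA exceeded the counted UMIs of some ligands (104.1 expected against 12 counted for Ccl6 in knock-in fibroblast-like cells), so ratios after subtracting it are no guide there.

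The count of ligands past 1.5-fold was 15 in fibroblast-like, 8 in SMC-like and 4 in macrophage- or monocyte-like cells; 19%, 20.8% and 15.6% of all genes were past it. At 2-fold it was 8, 5 and 1 (8.26%, 8.74% and 5.41% of all genes). It was 8 of 23 in macrophages with a minimum of 10 UMIs (19.4% of all genes) and 7 of 17 in female cells (18.8%). For SMC-like cells the count was 3 of 11 with a minimum of 50 UMIs (15.8% of all genes), 4 of 13 at up to 5% mitochondrial UMIs (19.1%), 4 of 11 in female cells (24.2%), 3 of 13 in cells of 8000 to 20000 UMIs (23.3%) and 3 of 8 with free RNA subtracted (20.3%).

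Of 1372 log2 ratios recomputed, 99 turned in sign, and 20 of these had been at least 1.5-fold apart; the 20 follow. In female cells alone the ratio was -0.97 for Cxcl2 in fibroblast-like cells, -0.57 for Cxcl2 and 0.11 for Ccl4 in the Fmod Ccn5 cluster, -0.12 for Cxcl2 and -0.37 for Cxcl1 in the Ly6c1 Tmem100 cluster, and -2.22 for Ccl7 in the Entpd2 Cpz cluster. In male cells alone it was 0.35 for Cxcl9 in fibroblast-like cells, 0.16 for Ccl3 in the Fmod Ccn5 cluster and 1.87 for Cxcl10 in the Entpd2 Cpz cluster. In cells of 8000 to 20000 UMIs it was 0.55 for Cxcl15 in fibroblast-like cells, 0.083 for Ccl3 and 0.17 for Cxcl15 in the Fmod Ccn5 cluster, and -0.35 for Ccl7 in the Entpd2 Cpz cluster. Without the top 1% of cells it was -0.21 for Cxcl2 in fibroblast-like cells, -0.013 for Ccl2 in the Fmod Ccn5 cluster and -0.30 for Cxcl2 in the Ly6c1 Tmem100 cluster. It was 0.23 for Cxcl10 in the Entpd2 Cpz cluster with doublets kept, -0.20 for Cxcl2 in the Ly6c1 Tmem100 cluster with chemokines among the variable genes, -1.37 for Ccl7 in the Entpd2 Cpz cluster at resolution 1.0, and 1.32 for Cxcl15 in fibroblast-like cells with the libraries clustered separately. The cause was not tested. At resolution 1.0 and with separate clustering, ratios within the Fmod Ccn5 and Ly6c1 Tmem100 clusters were not recomputed.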
